A study of Homo sapiens with 6 samples.

Results

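The genes described here encode the enzymes that add methyl groups to histones, the enzymes that take them off, and the Polycomb proteins that write and read repressive histone marks. They were chosen by a rule on gene symbols, set with earlier results of these data known. The rule took the lettered KMT and KDM genes (KDM8 was not among them), the SETD, SUV39H, SUV420H, EHMT, EZH, PRMT and PCGF genes and the CBX genes other than CBX1, together with PHF2, PHF8, DOT1L, NSD1, WHSC1, WHSC1L1, SETDB1, SETDB2, ASH1L, ASH2L, EED, SUZ12, BMI1, RING1 and RNF2. The rule found 75 genes among 56638 gene rows, and 73 of them had enough counts to be tested. PRMT8 had 0 counts in all 6 libraries, which allows a level of up to 0.0698 CPM in the control group and 0.0677 CPM in the treated group (3 counts over a group, counting error only). KDM5D also stayed outside the test, and its level is not given.

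The study sequenced total RNA of SW480, an established human colorectal cancer cell line, at passages 16 to 19. The control group held 3 libraries of untreated cells. The TGFB1 group held 3 libraries of cells given TGF-β1, a cytokine that signals through receptor kinases to SMAD transcription factors, at 10 ng/ml on more than 4 occasions. Both groups grew in the same medium with fetal bovine serum, and SW480 is the sole line used. The labels do not tie the libraries to independent cultures, and the p-values therefore reflect sample-to-sample spread that may be technical.

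Each library held 13012898 to 16005222 read counts in genes, and the chosen genes took 0.536% to 0.579% of them. Of 11 colon epithelial markers, 5 passed the count filter. Among these 1 was higher with TGF-β1, 3 were lower and 1 did not pass. KRT8 stood at 1711 ± 1.33 CPM in control cells, while CDX2 had 0 counts in every library and no library held more than 4 counts of VIL1, CDH17 or KRT20, so several defining colon markers were at or near 0. The summed level of these markers, most of it from KRT8, was 1897 to 1911 CPM in control and 1783 to 1825 CPM in TGFB1 libraries. Of 10 fibroblast markers 5 were tested and all 5 were higher with TGF-β1. Over all tested genes 23.4% were higher and 23.9% lower. The summed level of the 10 was 91 to 95 CPM in control and 120.1 to 136 CPM in TGFB1 libraries. Most of this sum was COL1A1, at a mean of 81.3 CPM in control and 105 CPM in TGFB1 libraries. FAP had at most 1 count in any control library, and the groups overlapped for THY1. COL1A2, COL3A1 and PDGFRA had 0 counts in the control libraries and at most 2 counts in any TGFB1 library. The part of these markers in the results below was not tested. In bulk RNA, fewer cells of a type and less RNA per cell cannot be told apart.

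Methyl groups on histone tails carry different messages according to the residue that holds them. Methylation of lysine 4 of histone H3 (H3K4) marks promoters and enhancers in use, that of H3K36 and H3K79 marks transcribed gene bodies, and that of H3K9 and H3K27 marks silent chromatin. Polycomb repressive complex 2 (PRC2) writes H3K27 methylation, and Polycomb repressive complex 1 (PRC1) places ubiquitin on histone H2A and compacts chromatin. Lysine demethylases reverse these marks, either by amine oxidation or with a JmjC domain that uses iron and 2-oxoglutarate.

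Levels are given in CPM, a gene's read counts relative to the TMM-scaled total of its library. Changes are log2 fold changes of TGFB1 minus control with their standard error, and a gene is called changed at a Benjamini-Hochberg adjusted p under 0.05 over all 14897 tested genes in edgeR's quasi-likelihood test. Of the 73 tested genes 14 were higher with TGF-β1, 18 were lower and 41 did not pass. Over all tested genes 47.3% were called, 23.4% higher and 23.9% lower, so the 32 called members of 73 lay near that background. In 39 members the 3 TGFB1 libraries lay wholly above or below the 3 control libraries, where 54.2% of all genes showed such a separation. The median log2 fold change of the members was −0.03, against 0.00 for all genes. A change of at least 1.5-fold was called in 3 higher and 3 lower members, against 18.3% of all genes in either direction. The median absolute change was 0.18 for the members and 0.24 for all genes on the log2 scale. With scaling by library size alone, 17 members were higher and 16 lower.

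**Figure D1:**
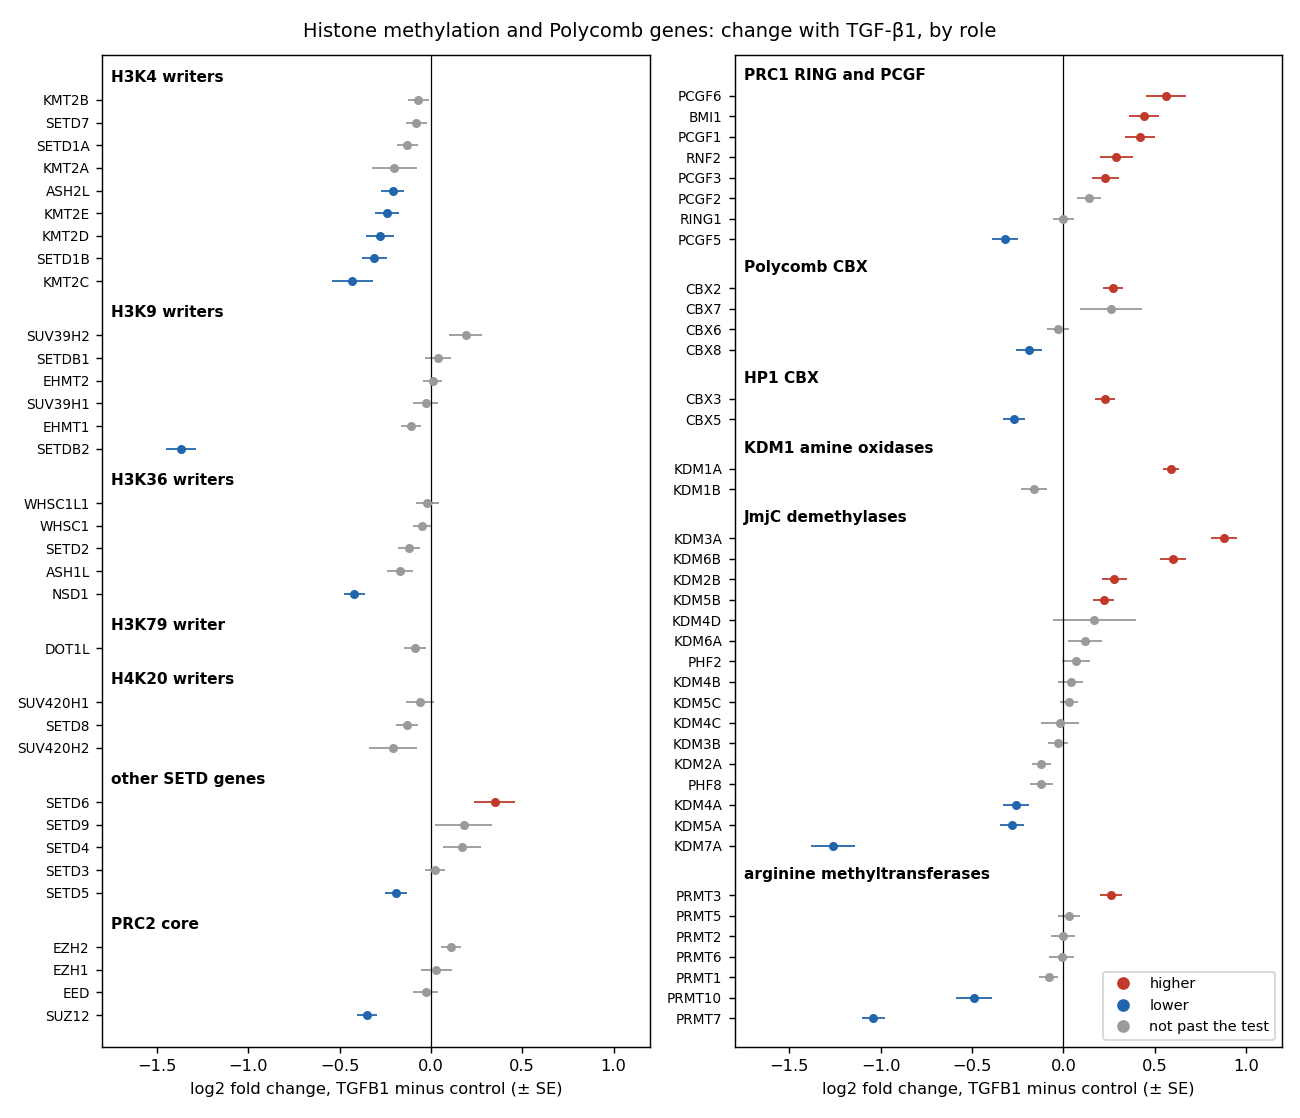
Log2 fold change (TGFB1 minus control, x axis) with its standard error for the tested genes that are reported by name, grouped by role. Red and blue points passed the test as higher or lower, and grey points did not. The widest changes are the falls of SETDB2 (−1.37), KDM7A (−1.26) and PRMT7 (−1.04) and the rise of KDM3A (0.88).

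The largest rises were in demethylases. KDM3A, which removes methyl groups from H3K9, stood at 26.2, 24.6 and 27.6 CPM in control libraries 1, 2 and 3 and at 47.6, 49.1 and 47.4 CPM in TGFB1 libraries 1, 2 and 3. All TGFB1 libraries lay above all control libraries, a 1.84-fold rise (log2 0.88 ± 0.070, edgeR adjusted p = 1.57e-11). KDM6B, which removes H3K27 methylation, rose from 33.5, 31.8 and 35.3 CPM to 55.1, 50.5 and 46.4 CPM. The lowest TGFB1 library exceeded the highest control library, and the change was 1.51-fold (log2 0.60 ± 0.072, edgeR adjusted p = 6.20e-08). KDM6A, its X-linked relative with the same substrate, did not pass, with 23.9, 20.3 and 26.6 CPM in control and 27.7, 26.6 and 22.7 CPM in TGFB1 libraries, which overlapped (log2 0.12 ± 0.094, edgeR adjusted p = 0.295).

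KDM1A, also called LSD1, is an amine oxidase that removes H3K4 methylation within the CoREST corepressor complex. It stood at 221, 221 and 226 CPM in control libraries and rose to 332, 341 and 335 CPM. The spread within each group was small beside this 1.51-fold rise, at SDs of 2.83 and 4.44 CPM (log2 0.59 ± 0.045, edgeR adjusted p = 7.40e-12). Its paralogue KDM1B had 39.0 ± 3.51 CPM in control and 34.9 ± 0.914 CPM in TGFB1 libraries and did not pass (edgeR adjusted p = 0.0728), though the call was made without control 2 (log2 −0.22). RCOR1, which encodes the CoREST scaffold that holds KDM1A, had 78.5 ± 6 and 73.1 ± 4.66 CPM, which did not pass (edgeR adjusted p = 0.209).

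**Figure D2:**
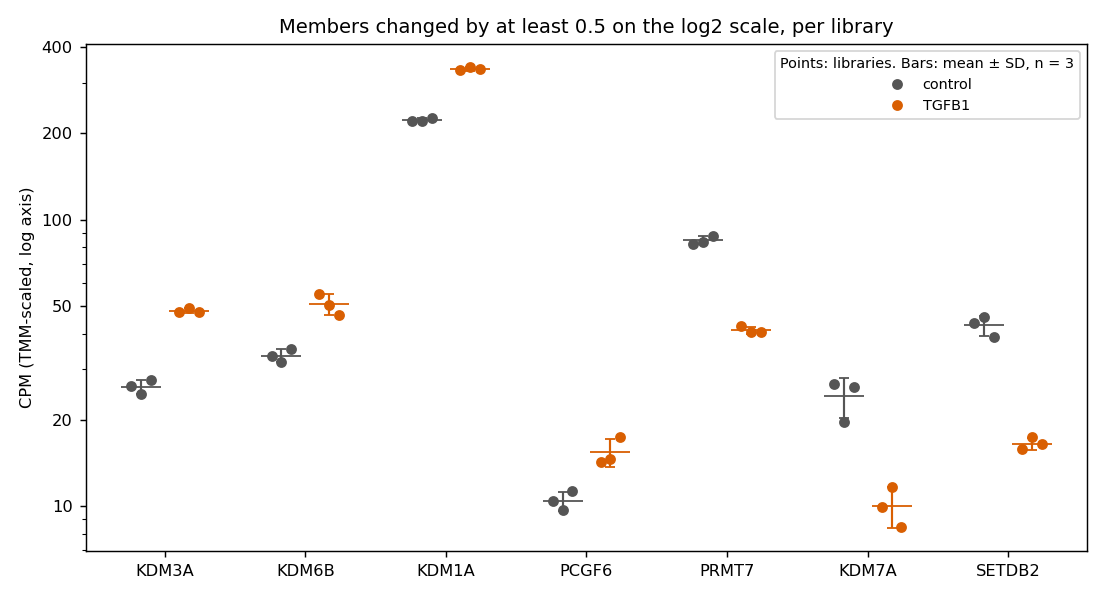
CPM per library (log axis) of the 7 members that passed the test with a log2 change of at least 0.5 in size. Points are libraries, and bars are the mean ± SD of 3 control (grey) or 3 TGFB1 (orange) libraries. In all 7 genes the 2 groups are separate, as for KDM1A at 221 to 226 against 332 to 341 CPM.

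The largest falls were in 3 enzymes of different classes. SETDB2, a SET-domain protein of the H3K9 methyltransferase family, fell from 43.6, 45.7 and 38.9 CPM to 15.8, 17.4 and 16.4 CPM. Every TGFB1 library was below every control library, a 2.58-fold fall (log2 −1.37 ± 0.081, edgeR adjusted p = 2.40e-14). KDM7A, a JmjC demethylase of H3K9 and H3K27, fell from 26.7, 19.7 and 26 CPM to 9.92, 11.7 and 8.45 CPM. The groups did not overlap, although control 2 was lower than the other control libraries (2.39-fold lower, log2 −1.26 ± 0.121, edgeR adjusted p = 5.22e-09). PRMT7, which places single methyl groups on arginine, fell from 82.4, 83.8 and 87.8 CPM to 42.5, 40.4 and 40.5 CPM. This was a 2.06-fold fall with narrow spread in both groups (log2 −1.04 ± 0.061, edgeR adjusted p = 1.67e-14).

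The stretches of 250 bases before the annotated start of KDM3A, KDM6B, KDM1A, SETDB2, KDM7A and PRMT7 are shown because these are the 6 members called at 1.5-fold or more. They are from RefSeq on GRCh38.p14, which is not the build of the count tables, and run 5′ to 3′ on the strand of the gene. Capitals mark CAGAC or its complement GTCTG, the core of the element that SMAD proteins bind.
KDM3A: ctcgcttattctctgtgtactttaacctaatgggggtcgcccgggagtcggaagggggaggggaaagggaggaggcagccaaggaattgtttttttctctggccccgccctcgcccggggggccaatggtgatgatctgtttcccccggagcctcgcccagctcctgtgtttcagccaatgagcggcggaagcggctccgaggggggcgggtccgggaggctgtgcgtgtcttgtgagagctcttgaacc
KDM6B: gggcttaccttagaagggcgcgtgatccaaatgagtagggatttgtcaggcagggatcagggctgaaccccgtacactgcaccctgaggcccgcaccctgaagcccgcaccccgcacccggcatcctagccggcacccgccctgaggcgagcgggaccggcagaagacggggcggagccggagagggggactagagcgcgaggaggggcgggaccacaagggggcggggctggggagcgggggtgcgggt
KDM1A: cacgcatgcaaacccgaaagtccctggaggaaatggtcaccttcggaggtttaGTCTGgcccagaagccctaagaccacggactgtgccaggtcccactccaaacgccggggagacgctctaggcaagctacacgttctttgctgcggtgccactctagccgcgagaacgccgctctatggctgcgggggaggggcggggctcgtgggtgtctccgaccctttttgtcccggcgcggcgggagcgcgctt
SETDB2: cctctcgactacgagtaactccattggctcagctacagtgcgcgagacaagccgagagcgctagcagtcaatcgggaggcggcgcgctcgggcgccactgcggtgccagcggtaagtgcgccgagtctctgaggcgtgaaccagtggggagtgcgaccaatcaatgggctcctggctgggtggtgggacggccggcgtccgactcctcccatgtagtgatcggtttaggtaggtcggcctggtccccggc
KDM7A: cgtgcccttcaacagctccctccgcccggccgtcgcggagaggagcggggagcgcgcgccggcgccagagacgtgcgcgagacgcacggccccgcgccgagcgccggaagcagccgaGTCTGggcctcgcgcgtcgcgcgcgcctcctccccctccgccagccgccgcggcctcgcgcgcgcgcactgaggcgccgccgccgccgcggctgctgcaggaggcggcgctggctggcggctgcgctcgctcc
PRMT7: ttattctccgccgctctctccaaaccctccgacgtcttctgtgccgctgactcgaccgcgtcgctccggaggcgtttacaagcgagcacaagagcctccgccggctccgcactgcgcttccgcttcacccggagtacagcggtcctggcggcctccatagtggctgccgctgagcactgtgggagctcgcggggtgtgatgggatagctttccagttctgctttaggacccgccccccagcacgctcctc
They lie at chr2:86441121-86441370, chr17:7833967-7834216, chr1:23019218-23019467, chr13:49444024-49444273, chr7:140176984-140177233 and chr16:68310769-68311018, with KDM7A on the minus strand and the others on the plus strand. The 5-base match occurred 1 time in KDM1A, which rose, and 1 time in KDM7A, which fell, and in none of the other 4. Of 66 tested members with an entry, 27 (40.9%) held it on either strand, against 37.8% of all 27305 promoter stretches of this length in the table. A match of 5 bases is a description of the letters, not a binding site. The member stretches had a median GC content of 67.0%, against 58.0% in the whole table, and a median ratio of observed to expected CpG of 0.949 against 0.556.

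All called writers of H3K4 methylation were lower. Of 9 tested, 0 were higher, 5 were lower and 4 did not pass, beside 23.4% higher and 23.9% lower over all tested genes. All 9 had a negative log2 fold change, from −0.43 to −0.07 with a median of −0.21. The group holds the longest tested members, KMT2D, KMT2C and KMT2A, at 19419, 16862 and 16628 bases. Among all tested genes over 8 kb, 36.7% were lower and 21% higher. The summed level of the 9 genes was 1119.7, 988 and 1079 CPM in control libraries and 946, 969 and 819 CPM in TGFB1 libraries. These did not overlap, though control 2 lay close to TGFB1 2. Sums over the writers of H3K9, H3K36 and H4K20, the PRC2 core, the KDM1 pair and the arginine methyltransferases were also separate. DOT1L alone was separate as well. Those of the other SETD genes, the Polycomb CBX, the HP1 CBX and the JmjC genes overlapped. KMT2C and KMT2D encode the giant enzymes that monomethylate H3K4 at enhancers. KMT2C fell from 107, 81.1 and 93.4 CPM to 71.6, 77.9 and 59.0 CPM, and control 2 lay close to TGFB1 2 (1.34-fold lower, log2 −0.43 ± 0.112, edgeR adjusted p = 0.00949). KMT2C has partial copies elsewhere in the genome that can draw reads from it, so its level is uncertain. KMT2D fell from 275, 234 and 257 CPM to 221, 228 and 182 CPM, with TGFB1 3 the lowest and control 2 close to TGFB1 2 (1.21-fold lower, log2 −0.28 ± 0.077, edgeR adjusted p = 0.00820).

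SETD1B, a catalytic subunit of the complexes that trimethylate H3K4 at promoters, fell 1.24-fold (edgeR adjusted p = 0.000738), from 124 ± 6.90 to 99.7 ± 11.9 CPM. KMT2E and ASH2L fell 1.18-fold and 1.16-fold. KMT2E was placed in this group by its KMT2 symbol, not by a shown H3K4 activity. ASH2L is a shared core subunit of the H3K4 complexes, called COMPASS, rather than an enzyme on its own. KMT2A, the founding mixed-lineage leukaemia gene, overlaps other annotated genes over 22% of its exonic bases on the same strand in the basic set of GENCODE 29. It had 139 ± 15.7 and 121 ± 18.2 CPM, which did not pass (edgeR adjusted p = 0.237). The call was made without control 2 (log2 −0.29) or TGFB1 2 (log2 −0.30), with every gene with a count kept and with the replicate number as a block. SETD1A and SETD7 did not pass either, and were called without TGFB1 1 (log2 −0.18) and without control 2 (log2 −0.14), in that order. SETD1A was also called with offsets for transcript length and GC content. KMT2B had 90.5 ± 3.27 and 86.0 ± 4.32 CPM, which did not pass (edgeR adjusted p = 0.312).

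Proteins that work with these enzymes were counted separately. Of 12 tested COMPASS partner genes 0 were higher, 2 were lower and 10 did not pass, with a median log2 fold change of −0.03. Over all tested genes 23.4% were higher and 23.9% lower. NCOA6, a coactivator bound by the KMT2C and KMT2D complexes, fell 1.15-fold, and HCFC1, a host cell factor that joins the promoter complexes, fell 1.13-fold. The groups overlapped for NCOA6, with 94.8 CPM in control 2 and 95.9 CPM in TGFB1 2. The longest transcripts of NCOA6 and HCFC1 have 9311 and 8869 bases, and 36.7% of all tested genes over 8 kb were lower. CXXC1, which brings the SETD1 complexes to CpG islands, narrowly missed the threshold at 52.6 ± 1.13 and 58.2 ± 0.237 CPM (edgeR adjusted p = 0.0503), and HCFC2 did not pass. Whether enzymes and partners differed from each other was not tested.

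Demethylases of H3K4 and H3K36 outside the KDM1 pair went both ways. KDM5A, the RB-binding demethylase, fell from 62.8 ± 2.71 to 51.4 ± 4.59 CPM (log2 −0.28 ± 0.067, edgeR adjusted p = 0.000843), while its paralogue KDM5B rose from 128 ± 6.82 to 149 ± 11.2 CPM (1.16-fold higher, edgeR adjusted p = 0.00192). KDM5C, the X-linked member of the family, showed 191 ± 11 and 195 ± 8.34 CPM, short of the threshold (edgeR adjusted p = 0.665). KDM2B, which recruits a PRC1 variant to CpG islands, rose from 42.6 ± 2.53 to 51.7 ± 2.28 CPM (1.22-fold higher, edgeR adjusted p = 0.000787). KDM2A, its paralogue and an H3K36 demethylase, had 123 ± 2.4 and 113 ± 1.85 CPM and narrowly missed the threshold (edgeR adjusted p = 0.0515), with the call made without control 2 (log2 −0.14).

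Writers for H3K9 were lower in 1 of 6 tested, SETDB2, and 5 did not pass, beside 23.9% lower over all tested genes. SUV39H1, which trimethylates H3K9 in pericentric heterochromatin, stood at 42.4, 46.5 and 46.8 CPM in control and 46.8, 44.6 and 41.6 CPM in TGFB1 libraries. The groups overlapped across almost their whole range (log2 −0.03 ± 0.068, edgeR adjusted p = 0.759). EHMT2, also called G9a, the main H3K9 dimethyltransferase, stood at 98.4, 99.5 and 101 CPM and at 105, 99.6 and 97.1 CPM, again overlapping (log2 0.01 ± 0.053, edgeR adjusted p = 0.862). Its partner EHMT1 and the endogenous retrovirus silencer SETDB1 did not pass (edgeR adjusted p = 0.0816 and 0.644). SUV39H2 had 19.7 ± 2.15 and 22.4 ± 1.5 CPM, which did not pass (edgeR adjusted p = 0.0829). It was called without control 1 (log2 0.28) and with scaling by library size alone (log2 0.25). Upper quartile scaling and offsets for transcript length and GC content also gave the call.

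Among other JmjC demethylases that act on H3K9, KDM4A fell 1.2-fold, from 48.6 ± 4.09 to 40.5 ± 1.5 CPM (edgeR adjusted p = 0.00259). In the same basic set other annotated genes cover 46.4% of its exonic bases on the same strand and 9.5% on the opposite strand, so its reads are uncertain. KDM3B, KDM4B, KDM4C, KDM4D, PHF2 and PHF8 did not pass, with log2 fold changes of −0.12 to 0.17. KDM4D was the lowest of the tested members, at 2.60 ± 0.665 and 2.89 ± 0.673 CPM. In all, 4 of 16 tested JmjC genes were higher, 3 were lower and 9 did not pass, beside 23.4% higher and 23.9% lower over all tested genes.

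The HP1 proteins that bind methylated H3K9 split by paralogue. CBX3 (HP1γ) rose from 245, 246 and 232 CPM to 264, 275 and 312 CPM, with TGFB1 3 above the other libraries (1.18-fold higher, log2 0.23 ± 0.054, edgeR adjusted p = 0.000723). CBX5 (HP1α) fell from 255, 224 and 240.0 CPM to 199, 216 and 180.3 CPM, the groups lying close at control 2 and TGFB1 2 (1.21-fold lower, log2 −0.27 ± 0.059, edgeR adjusted p = 0.000448). CBX3 has several pseudogene copies, of which CBX3P9 had 5.71 CPM in control and 6.52 CPM in TGFB1 libraries, and reads that fit several copies make its level uncertain. CBX1 (HP1β), outside the rule, rose from 126 ± 6.83 to 149 ± 7.64 CPM (edgeR adjusted p = 0.000535). Of 12 tested partners of H3K9 enzymes and HP1, CBX1 included, 5 were higher, 2 were lower and 5 did not pass (median log2 0.06). Over all tested genes 23.4% were higher and 23.9% lower, and whether the partners differed from these shares was not tested. UHRF1, a reader of H3K9 methylation that guides maintenance DNA methylation, rose 1.44-fold. CDYL, a chromodomain corepressor, rose 1.40-fold, and WIZ, a zinc finger protein of the G9a complex, rose 1.16-fold.

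Writers for H3K36 were lower in 1 of 5 tested and 4 did not pass, beside 23.9% lower over all tested genes. NSD1, which dimethylates H3K36, fell from 175, 156 and 158 CPM to 130.1, 126 and 110.5 CPM, every TGFB1 library lying below every control library (1.33-fold lower, log2 −0.42 ± 0.058, edgeR adjusted p = 9.70e-07). Its paralogues WHSC1 (NSD2) and WHSC1L1 (NSD3) did not pass (edgeR adjusted p = 0.469 and 0.838). SETD2, the enzyme of H3K36 trimethylation, stood at 138, 124 and 132 CPM in control and 123, 130.5 and 109 CPM in TGFB1 libraries, which overlapped (log2 −0.12 ± 0.059, edgeR adjusted p = 0.105). SETD2 was called without control 2 (log2 −0.17) or TGFB1 2 (log2 −0.18). ASH1L narrowly missed the threshold (log2 −0.17, edgeR adjusted p = 0.0540), and was called without control 2 (−0.23), control 3 (−0.21) or TGFB1 2 (−0.24). ASH1L was also called with limma-voom, with every gene with a count kept and with the replicate number as a block.

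DOT1L, the H3K79 methyltransferase, stood at 65.1, 64.3 and 68.9 CPM in control and 61.9, 63.8 and 60.2 CPM in TGFB1 libraries. The groups did not overlap although control 2 and TGFB1 2 lay close together, and the gene did not pass (log2 −0.09 ± 0.060, edgeR adjusted p = 0.214). Of 3 tested H4K20 writers none was called (edgeR adjusted p = 0.0889 for SETD8, 0.522 for SUV420H1 and 0.197 for SUV420H2), and 1 of the 3, SETD8, had an unadjusted p under 0.05. SUV420H2 was called without TGFB1 2 (log2 −0.42), the library in which it stood highest among the treated, at 14.2 CPM against 9.24 and 10.8 CPM. SETD8 was called with offsets for transcript length and GC content (log2 −0.13).

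Of the remaining SETD genes, SETD6, which methylates the RELA subunit of NF-κB, rose 1.27-fold (log2 0.35 ± 0.112, edgeR adjusted p = 0.0120). This call ended without control 2 (log2 0.21), the lowest control library at 10.2 CPM, and adjusted p ranged from 0.00220 to 0.128 over the 15 alternatives. Exons of CNOT1 on the opposite strand cover 29.9% of its exonic bases, and no source used here states whether counting was stranded. Opposite-strand genes also cover 45% of the exonic bases of PCGF2, 32.1% of CBX7, 21.5% of SUV39H1, 14.1% of EHMT2 and 12% of DOT1L. SETD5 fell 1.14-fold (log2 −0.19 ± 0.060, edgeR adjusted p = 0.0120), and its call ended without TGFB1 3 (log2 −0.11) and with scaling by library size alone (log2 −0.13), at adjusted p of 0.000679 to 0.0861 over the alternatives. SETD3, an actin histidine methyltransferase, had 80.6 ± 2.28 CPM in control and 81.5 ± 1.26 CPM in TGFB1 libraries (edgeR adjusted p = 0.828). SETD3, SETD4 and SETD9 did not pass.

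In the PRC2 core 1 of 4 genes was called, beside 47.3% of all tested genes. SUZ12, the scaffold subunit, fell from 92.4, 84.2 and 89.0 CPM to 68.0, 71.2 and 69.4 CPM, all TGFB1 libraries lying below all controls (1.27-fold lower, log2 −0.35 ± 0.057, edgeR adjusted p = 1.05e-05). The near-identical pseudogene SUZ12P had 10.3 CPM in control and 11 CPM in TGFB1 libraries, and reads that fit both copies make the level uncertain. EZH2, the main H3K27 methyltransferase, stood at 80.3, 88.1 and 89.0 CPM in control and at 90.5, 92.8 and 94.9 CPM in TGFB1 libraries. The groups did not overlap, yet the gene did not pass (log2 0.11 ± 0.057, edgeR adjusted p = 0.106). It was called with scaling by library size alone (log2 0.17) and with length and GC offsets (log2 0.12).

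EZH1, the paralogue that predominates in cells that do not divide, stood at 30.8, 30.5 and 30.5 CPM and at 29.5, 36.2 and 27.5 CPM. TGFB1 2 was high and TGFB1 3 low, and the groups overlapped (log2 0.03 ± 0.084, edgeR adjusted p = 0.809). EED, which reads H3K27 methylation, stood at 52.3, 59.6 and 54.0 CPM and at 53.7, 51.2 and 57.4 CPM, also overlapping (log2 −0.03 ± 0.066, edgeR adjusted p = 0.714). Of 9 tested PRC2 partners, C17orf96 (EPOP) rose 1.17-fold (edgeR adjusted p = 0.0133), PHF1 fell 1.16-fold (edgeR adjusted p = 0.0111) and 7 did not pass. The share called over all tested genes was 47.3%. JARID2, a cofactor that helps target PRC2, had 31.6 ± 3.65 and 34.4 ± 3.30 CPM and did not pass, nor did AEBP2 (edgeR adjusted p = 0.219 and 0.271).

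Of 8 tested RING and PCGF genes 5 were higher, 1 was lower and 2 did not pass, beside 23.4% higher and 23.9% lower over all tested genes. Their median log2 fold change was 0.26 beside 0.00 for all genes. Their summed level was 278, 292 and 286 CPM in control libraries and 317, 305 and 312 CPM in TGFB1 libraries, without overlap. Several other role groups had separate sums too, such as the H3K9 writers at 357 to 363 against 318 to 336 CPM. PCGF6, part of a PRC1 variant with MGA and L3MBTL2, rose from 10.4, 9.65 and 11.3 CPM to 14.3, 14.6 and 17.4 CPM, and all TGFB1 libraries lay above all controls (1.47-fold higher, log2 0.56 ± 0.110, edgeR adjusted p = 0.000106). BMI1 (PCGF4), a subunit of canonical PRC1, rose from 21.1 ± 0.917 to 28.7 ± 2.33 CPM (1.36-fold higher, edgeR adjusted p = 5.44e-05). The read-through gene COMMD3-BMI1 covers 29.2% of its exonic bases in the basic set. PCGF1, which pairs with KDM2B and BCOR, rose from 25.2 ± 2.39 to 33.9 ± 2.97 CPM (1.34-fold higher, edgeR adjusted p = 0.000106), and PCGF3 rose 1.17-fold.

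RNF2 (RING1B), the main ubiquitin ligase for histone H2A, rose from 20.8 ± 1.64 to 25.6 ± 2.85 CPM (log2 0.29 ± 0.090, edgeR adjusted p = 0.00811). Its call ended without control 1 (log2 0.23) or TGFB1 1 (log2 0.22), at adjusted p of 0.000968 to 0.0874 over the alternatives. RING1, its paralogue, had 87.4 ± 4.96 and 87.4 ± 0.533 CPM, which did not pass (edgeR adjusted p = 0.987). PCGF5 was the member of this group that fell, from 45.3 ± 2.69 to 36.1 ± 3.29 CPM (log2 −0.32 ± 0.073, edgeR adjusted p = 0.000582). PCGF2 did not pass (edgeR adjusted p = 0.0886) and was called without control 2 (log2 0.18) or TGFB1 3 (log2 0.17). It was also called with library size alone (log2 0.19) and with upper quartile scaling.

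The chromodomain subunits that tether canonical PRC1 to H3K27 methylation were mixed. CBX2 rose from 109.6, 108 and 123 CPM to 138, 140.2 and 133 CPM (1.21-fold higher, edgeR adjusted p = 0.000120). All its TGFB1 libraries lay above all its control libraries. CBX8 fell 1.14-fold (log2 −0.19 ± 0.071, edgeR adjusted p = 0.0289), a call that ended in 8 of 15 alternatives, DESeq2 among them, at adjusted p of 0.0144 to 0.125. The libraries whose removal ended it were control 2 (log2 −0.16), TGFB1 1 (−0.20), TGFB1 2 (−0.20) and TGFB1 3 (−0.17). CBX6 and CBX7 did not pass, and CBX7 was low, at 4.41 ± 0.809 and 5.25 ± 0.662 CPM.

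Partners of PRC1 were called in 13 of 19 tested, 7 higher and 6 lower, with a median log2 fold change of −0.02. Over all tested genes 47.3% were called, and whether the partners differed from that share was not tested. PHC2, a polyhomeotic subunit that joins PRC1 into clusters, rose from 45.0 ± 1.30 to 80.4 ± 3.98 CPM (1.79-fold higher, edgeR adjusted p = 3.14e-12). SCML2 and SCML1, sex comb on midleg relatives, fell 2.15-fold and 1.46-fold (edgeR adjusted p = 4.80e-10 and 4.58e-07). DCAF7, a WD-repeat partner of PCGF3 and PCGF5 complexes, fell 1.36-fold (edgeR adjusted p = 1.75e-07). Of 6 tested genes for the deubiquitinase that reverses the PRC1 mark 1 was higher, 2 were lower and 3 did not pass, among them FOXK2 (edgeR adjusted p = 0.179). BAP1, the catalytic subunit, rose 1.12-fold and OGT fell 1.29-fold (edgeR adjusted p = 0.0122 and 1.75e-07). ASXL1 fell 1.08-fold and passed narrowly (edgeR adjusted p = 0.0472).

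Arginine methyltransferases were higher in 1 of 7 tested, lower in 2 and did not pass in 4, beside 23.4% higher and 23.9% lower over all tested genes. PRMT3, a cytosolic enzyme that methylates a ribosomal protein, rose from 53.6 ± 0.808 to 64.3 ± 1.48 CPM (log2 0.26 ± 0.060, edgeR adjusted p = 0.000592). PRMT10, whose current symbol is PRMT9, fell from 16 ± 0.671 to 11.5 ± 0.403 CPM (1.4-fold lower, log2 −0.49 ± 0.099, edgeR adjusted p = 0.000168). PRMT5, the main enzyme for symmetric dimethylarginine, stood at 57.3, 59.7 and 57.7 CPM in control and 59.1, 59.1 and 60.6 CPM in TGFB1 libraries. These overlapped, and the gene did not pass (log2 0.03 ± 0.059, edgeR adjusted p = 0.692). Exons of PRMT5-AS1 on the opposite strand cover 34.8% of its exonic bases. PRMT1, which makes most asymmetric dimethylarginine, had 225 ± 15.8 and 212 ± 3.11 CPM, which did not pass (edgeR adjusted p = 0.201). It was called without control 1 (log2 −0.13) and with length and GC offsets (log2 −0.12). PRMT2 and PRMT6 did not pass.

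Some enzymes outside the rule were listed as well. Of 12 tested genes for further methylation enzymes and related proteins 4 were higher, 0 were lower and 8 did not pass, with a median log2 fold change of 0.17. Over all tested genes 23.4% were higher and 23.9% lower, and whether the list differed from these shares was not tested. SMYD3, a SET and MYND domain methyltransferase, rose 1.5-fold, SETMAR 1.28-fold, CARM1 (PRMT4) 1.17-fold and MINA, a JmjC oxygenase, 1.15-fold. In the cycle that supplies and clears the methyl donor S-adenosylmethionine, 1 of 10 tested genes was higher, 2 were lower and 7 did not pass. NNMT, which uses the donor to methylate nicotinamide, rose from 18.9 ± 0.984 to 37.4 ± 2.62 CPM (1.98-fold higher, edgeR adjusted p = 2.22e-11). AHCY, which clears S-adenosylhomocysteine, fell 1.37-fold, and its relative AHCYL1 fell 1.47-fold. AMD1 did not pass (edgeR adjusted p = 0.463).

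Per kilobase of the longest transcript in the full GENCODE 29 set, the members spanned a wide range in control cells. PRMT1 was highest at 133 CPM per kb, before CBX3 at 113, KDM1A at 72.8 and RING1 at 49.9. The lowest tested members were KDM4D at 0.871, CBX7 at 1.08 and KDM7A at 2.61 CPM per kb. With TGF-β1 CBX3 stood highest at 133 CPM per kb, followed by PRMT1 at 126 and KDM1A at 109.8. Transcripts of the full set include models that the smaller basic set leaves out, and 64 of the 73 tested members had the same length in both. KDM3A differed most, at 8741 bases in the full and 4928 in the basic set, so its control level was 2.99 or 5.3 CPM per kb. No test was made of this order.

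**Figure D3:**
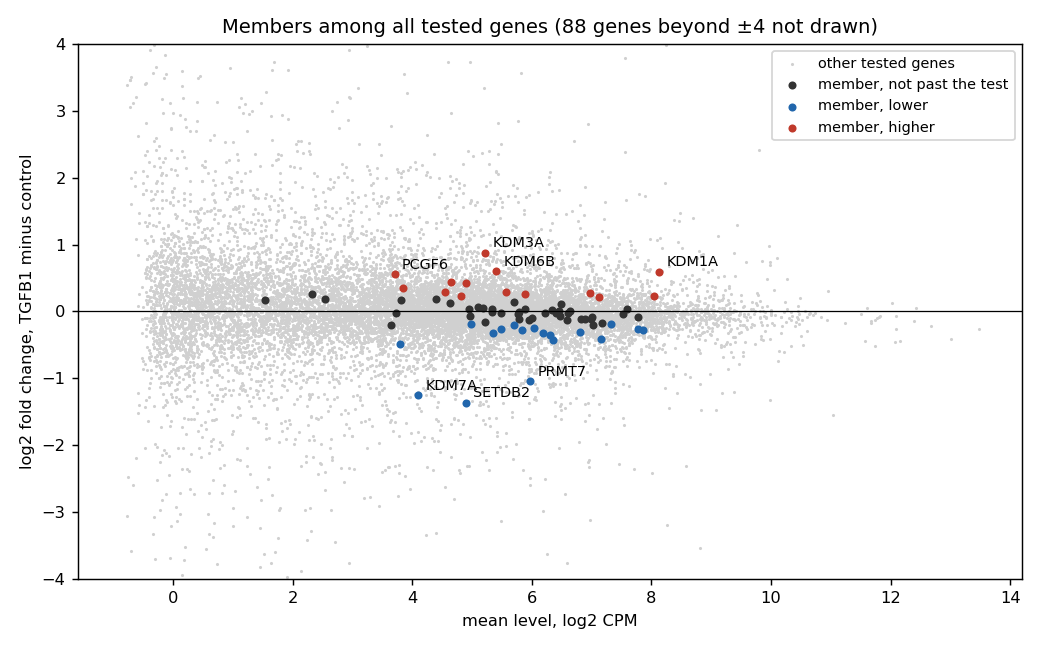
Log2 fold change (TGFB1 minus control) against mean level in log2 CPM for all 14897 tested genes (light grey) and the 73 tested members (dark grey, blue for lower and red for higher), with 88 genes beyond ±4 not drawn. The members lie between −1.37 and 0.88, within the range of the other genes.

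Transcript length moved with some of these results. The median longest transcript was 4644 bases for the members and 3553 for all tested genes with a match. Of the 15 members over 8 kb, KMT2C, KMT2D, KMT2A and NSD1 among them, 7 were lower and 2 were higher, and their median log2 fold change was −0.20. Among all 1152 genes over 8 kb 36.7% were lower and 21% higher (median −0.09), while of those under 2 kb 18.1% were lower and 22% higher. Across the 73 members length and log2 fold change had a Spearman correlation of −0.38, against −0.08 across 13409 genes, and these genes share libraries and are not independent. With lengths from the basic set, 14 members lay over 8 kb, 7 lower and 1 higher (median −0.24), and the correlation was −0.43 across members and −0.07 across all genes. The deviation of the members from their group mean correlated with length at 0.53, −0.50 and 0.03 in control libraries 1 to 3 and at 0.36, 0.45 and −0.58 in TGFB1 libraries 1 to 3. Across all genes these values were 0.31, −0.29 and −0.03 and then 0.09, 0.26 and −0.29, of the same sign as the members in every library but control 3.

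With offsets for length (full set) and GC content in the fit, all 14 higher and all 18 lower calls remained. The falls of 3 long members shrank by over 1.5 times on the log2 scale, to −0.17 for KMT2D, −0.16 for CBX5 and −0.18 for KDM5A. KMT2C stood at −0.30 and NSD1 at −0.31, and SETDB2, PRMT7 and KDM7A at −1.33, −1.04 and −1.16. Any further part of transcript length in the calls was not tested.

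**Figure D4:**
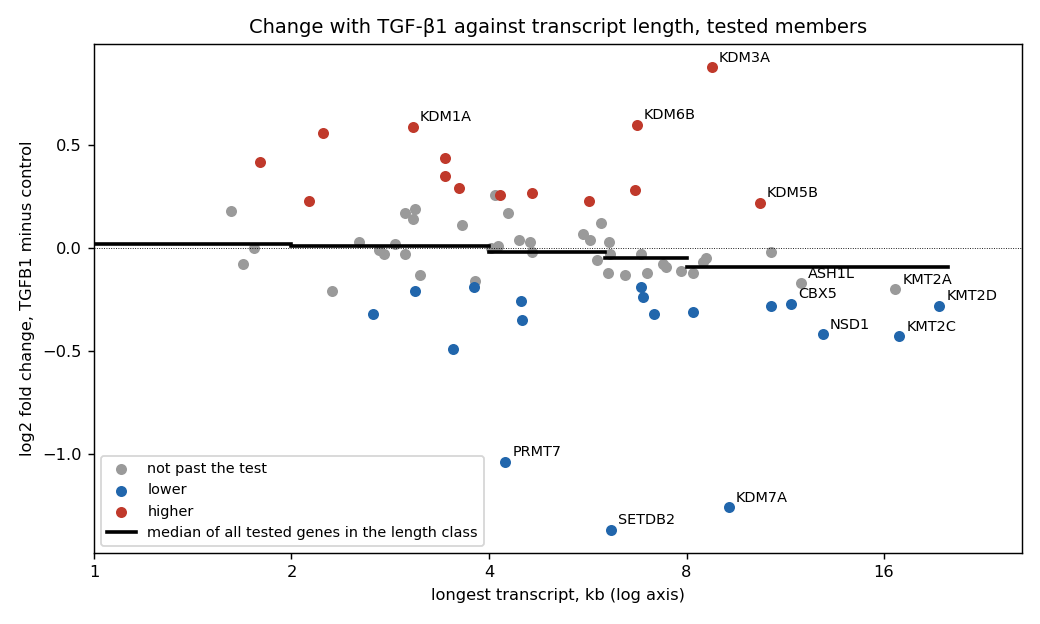
Log2 fold change (TGFB1 minus control) of the 73 tested members against the length of their longest transcript in the full GENCODE 29 set in kb (log axis), colored by call. Black bars give the median of all tested genes in each length class, falling from 0.02 under 2 kb to −0.09 over 8 kb.

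EZH2, SUV39H1 and SETD8 are among the enzymes known to be made mostly in dividing cells. Of 20 listed proliferation genes 2 were higher, 9 were lower and 9 did not pass (median log2 −0.07), beside 23.4% higher and 23.9% lower over all tested genes. The summed level of the 20 was 5563 to 5676 CPM in control and 4912 to 4999.7 CPM in TGFB1 libraries. AURKA, a mitotic kinase, fell 1.46-fold, the proliferation antigen MKI67 fell 1.40-fold, and TOP2A and the checkpoint kinase BUB1 fell 1.26-fold and 1.21-fold. The 2 higher genes were CCNA2 at 1.2-fold and E2F1 at 1.16-fold (edgeR adjusted p = 4.84e-05 and 0.00275). PCNA and MCM3 to MCM7 were among those that did not pass. The part of division rate in the members' changes was not tested.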

How the data were processed

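RNA was sequenced from 3 control and 3 TGFB1 libraries of SW480 cells. The authors deposited 1 table of raw read counts per gene symbol for each library. The submitters' processing notes name TopHat2 2.0.11, TopHat and HTSeq as tools and hg19 and GRCh37 as builds, without saying what each did. For the annotation, strand setting and read filters, no statement was found (not given in the sources used here). Counter totals that name no gene stayed out of library sizes and tests: no feature took 5.44% to 5.98% of each table's total, ambiguous reads 9.01% to 9.43% and multiply aligned reads 12.0% to 12.5%.

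Genes were kept with filterByExpr (minimum count 10, minimum total count 15), scaled by TMM and tested with edgeR 4.0.16 (robust quasi-likelihood fit, Benjamini-Hochberg adjustment, threshold 0.05) in R 4.3.3. The fit held group as its only term and its biological coefficient of variation was 0.047. It was checked on simulated counts. Standard errors were derived by dividing each log2 fold change by the root of its F value. Alternatives used DESeq2 1.42.0, limma 3.58.1 (voom), other scalings and filters, the replicate number as a block, and each library left out. The length and GC offsets, from the longest transcript of the full GENCODE 29 set, and the lengths from its basic set were chosen after seeing the data.

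All members enter the counts, and 1 of them is not reported here by name. Full values are given for called members with a log2 change of at least 0.5 and a set of fixed members (further members were chosen after their values were seen), and up to 4 genes of lowest p per partner list. RCOR1, CCNA2, E2F1, PCNA and MCM3 to MCM7 are named in addition, after their values were seen. The members and lists were chosen with earlier results of these data known. Within groups, the chi-square per degree of freedom between library pairs ran from 1.55 to 3.23, and each library counted as 1 replicate. Older symbols were matched to GENCODE 29 and RefSeq through RefSeq synonyms, which covered all 73 tested members and 13409 of 14897 tested genes (90%).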

Additional observations from a re-analysis of the deposited data

How the results depend on the processing

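Over the 15 alternatives the number of higher members ran from 13 to 17 and that of lower members from 16 to 23, against 14 and 18. All 18 lower calls and 14 higher calls remained with limma-voom, RLE scaling, the stricter count filter, the replicate block and the length and GC offsets. Leaving out each library in turn gave 13 to 15 higher and 16 to 23 lower members, and 6115 to 6816 called genes in all against 7044. Of the called members 12 of 14 higher and 16 of 18 lower passed in every alternative; the exceptions were RNF2, SETD6, CBX8 and SETD5. Of the 41 others 28 did not pass in any. No called member changed direction. Under the replicate block 14 members were higher and 20 lower (KMT2A and ASH1L in addition), and 6775 genes were called in all. Same-numbered libraries did not deviate together (correlations of 0.03, −0.11 and −0.05 across genes), 0 of 3 control and 1 of 3 TGFB1 libraries correlated best with their own number, and the number is a term in no other fit. Library size alone moved the median of all genes to 0.06 on the log2 scale and gave 4216 higher and 2879 lower genes in all, against 3483 and 3561. The number of libraries, 3 per group, limits small changes: the members that did not pass lay between −0.21 and 0.26 on the log2 scale.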
